A study of Cricetulus griseus with 5 samples.

Results

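The genes described here are the Hox cluster transcription factors, taken as every array probe whose single gene symbol is Hox followed by a cluster letter from a to d and a number. The rule found 35 probes for 35 genes, 1 probe each, among 16504 genes with a singly named probe and 20868 probes in all. Hoxa had 10 members, Hoxb 8, Hoxc 8 and Hoxd 9. All 5 arrays form 1 group, A23 vs A23: RNA of the A23 cell line, a Chinese hamster fibroblast line that lacks thymidine kinase and was grown here in flasks with serum, labelled with Cy5 in one channel and with Cy3 in the other. Per the series' design text the arrays are a control for the power to find cis ceQTLs, loci whose copy number changes the expression of the gene that lies there. The labels name replicas 1 to 5 and do not say whether they come from separate cultures or extracts, so p-values cover nothing beyond array-to-array spread, which may be technical.

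Hox proteins bind DNA through a homeodomain and give cells their position along the head-to-tail axis and along the limb. In mammals the genes lie in 4 clusters that arose by duplication, so that genes of 1 paralog group, such as the genes numbered 13, are more alike than neighbours within a cluster. Low-numbered genes lie at the 3′ end and act towards the head, and high-numbered ones at the 5′ end act towards the tail and the tips of the limbs. Cultured fibroblasts of mouse and human are known to keep a Hox pattern that records the site they were taken from. The probes were designed for mouse genes, and 28 of the 35 symbols are also symbols in the hamster RefSeq annotation CriGri-PICRH-1.0. No genome position is given, because the probes' positions in the hamster were not determined, and whether a probe also binds the RNA of a paralog was not tested. The table holds a log ratio and no brightness, so neither the level of any Hox gene in A23 nor the fibroblast identity of the line could be checked, although all 8 fibroblast markers and all 3 epithelial markers looked up had a probe.

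With the same cell line in both channels, the design implies a log ratio of 0. Values are given in the deposited log units, with the sign as deposited, since the channel in the numerator is not stated. Read as log10, a value of 0.176 is 1.5-fold. Each column had a median of exactly 0, a value that many probes shared. Signs were uneven on replicate 2 (48.15% of probes positive, 43.5% negative) and replicate 4 (44.6% and 49.0%), and close to even on the others. Replicate 2 was the widest, with an SD over all probes of 0.174 against 0.119 to 0.127 on the other arrays.

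Hox genes gave ratios near 0 on average, and single genes were scattered on both sides. Of the 35 mean ratios, 20 were positive, 14 negative and 1 exactly 0, from -0.171 for Hoxb1 to 0.156 for Hoxb5. The median was 0.0167 over the Hox probes and 0.00187 over all probes, and the median size without sign was 0.0419 against 0.0392. In the moderated test of limma, adjusted by Benjamini-Hochberg over all probes, 1 Hox probe passed an adjusted p of 0.05, Hoxa13, with a negative ratio. Of all probes 3.42% passed, 1.41% on the positive side and 2% on the negative side. At an unadjusted p of 0.05 in limma, 10 of 35 Hox probes passed, 6 positive and 4 negative, which is 28.6% against 27.3% of all probes, a share near the background. That background was itself far above what a threshold of 0.05 would pass if every true mean ratio were 0. The reason was not tested. Calls, adjusted ones included, are therefore to be read against the share over all probes. The ratio had 1 sign on all 5 arrays for 7 Hox probes, 4 positive and 3 negative, or 20% against 26.4% of all probes. A probe with a value of exactly 0 could not meet this, and among probes without one the shares were 30.4% and 35.5%. The plot of log ratios by cluster shows each value.

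**Figure D1:**
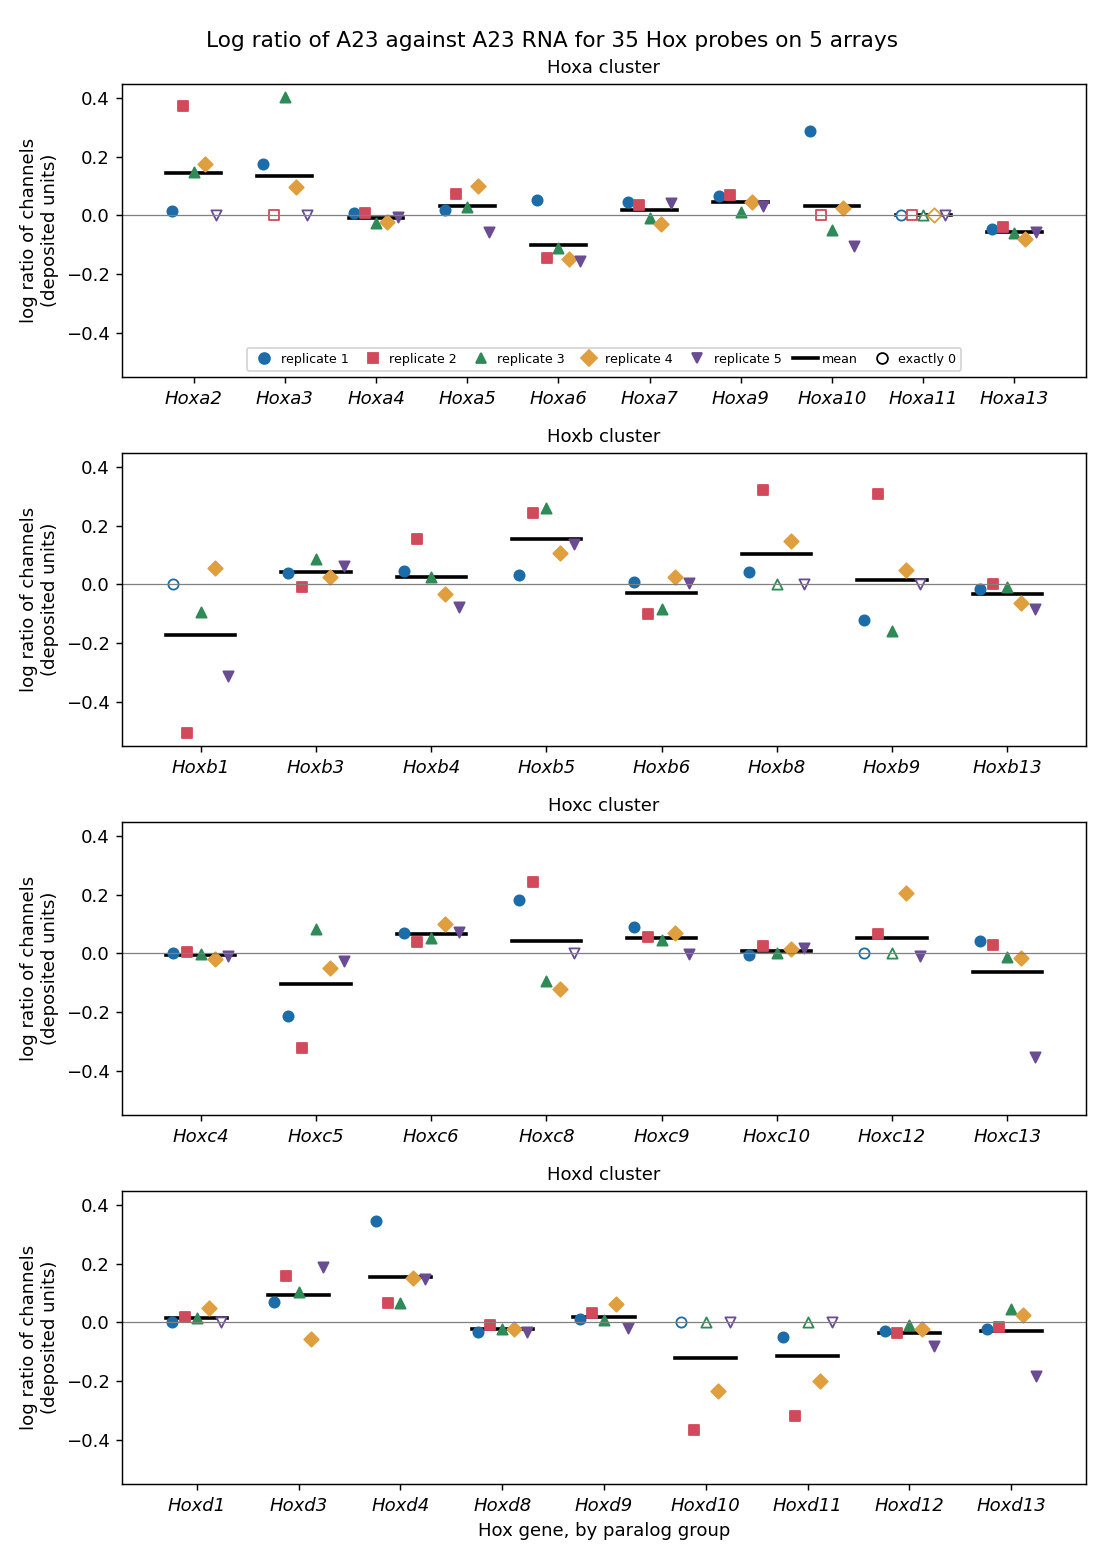
Log ratio of the 2 channels (deposited units, y axis) for the 35 Hox probes (x axis, by cluster and paralog group) on each of 5 arrays of A23 against A23 RNA; filled points are arrays, open points are values of exactly 0 and the black bar is the mean. Values range from -0.507 for Hoxb1 on replicate 2 to 0.404 for Hoxa3 on replicate 3, and the 5 points of Hoxa11 all lie at 0.

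In the Hoxa cluster the 3′ members Hoxa2 and Hoxa3 had the largest mean ratios over all 5 arrays, the 5′ end member Hoxa13 had the steadiest departure from 0, and Hoxa11 was listed at 0 throughout. Hoxa2, which sets the identity of the second pharyngeal arch, had log ratios of 0.0163, 0.373, 0.150, 0.176 and 0 on replicates 1 to 5, a mean of 0.143 ± 0.150 (SD, n = 5). Hoxa3, needed for the thymus and parathyroid, had 0.174, 0, 0.404, 0.0961 and 0, a mean of 0.135 ± 0.167. Both means were positive with 1 or 2 arrays at exactly 0, both were smaller than their SD, and neither passed (limma adjusted p = 0.209 and 0.264). Each rested in part on 1 array, the mean of Hoxa2 being 0.0854 without replicate 2 and that of Hoxa3 0.0676 without replicate 3. Hoxa13, which acts in digits and the genital tubercle, had -0.0457, -0.0395, -0.0599, -0.0801 and -0.0560, a mean of -0.0562 ± 0.0156. All 5 of its arrays were negative within a narrow range, and it passed at a limma adjusted p of 0.0497, just inside the threshold, with a size of 1.14-fold if log10 and 1.04-fold if log2. Its symbol was not among those also found in the hamster annotation. Leaving out any of the 5 arrays ended the call of Hoxa13 (adjusted p from 0.0979 to 0.153 in limma), while its mean stayed between -0.0604 and -0.0503. That loss was not particular to Hoxa13, as those refits called 4 to 63 of all 20868 probes, against 713 with all arrays. Of 6 other settings run for single probes, 4 ended the Hoxa13 call as well (limma adjusted p from 0.0543 to 0.0758). In those 4 settings 1.2% to 2.53% of all probes passed. The call held with scaled (0.0465) or weighted (0.0299) arrays, where 4.58% and 7.58% of all probes passed. Hoxa11, which patterns the forearm and the uterus, was listed at exactly 0 on all 5 arrays, as were 1.97% of all probes, so it has no measured spread and no test.

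Of the other Hoxa members, Hoxa6 lay farthest from 0 and the rest had means under 0.05 in size. Hoxa4 had 0.00652, 0.00910, -0.0258, -0.0238 and -0.00514, a mean of -0.00783 ± 0.0164 (SD, n = 5), with both signs and no value far from 0. Hoxa9, a gene of blood stem cells whose misexpression is known from leukaemia, was positive on all 5 arrays, from 0.0131 to 0.0686, with a mean of 0.0453 ± 0.0231 (limma adjusted p = 0.0889). Hoxa5, known for its part in lung development, averaged 0.0321 ± 0.0590 and Hoxa7 0.0168 ± 0.0339. Those means were smaller than their SD. Hoxa6 was negative on replicates 2 to 5, from -0.154 to -0.113, and positive on replicate 1 at 0.0519, which gave a mean of -0.102 ± 0.0875, and -0.140 without replicate 1. Hoxa10, which acts in the uterus and the hindlimb, ran from -0.104 on replicate 5 to 0.288 on replicate 1 with replicate 2 at exactly 0. Its mean of 0.0322 ± 0.152 was -0.0319 without replicate 1.

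In the Hoxb cluster Hoxb1 had the lowest and Hoxb5 the highest mean ratio of the family over all 5 arrays, an order that did not outlast the loss of single arrays. Hoxb1, which sets the identity of the fourth hindbrain segment, had log ratios of 0, -0.507, -0.0941, 0.0547 and -0.311 on replicates 1 to 5, a mean of -0.171 ± 0.234 (SD, n = 5; limma adjusted p = 0.299). Its spread was the largest of the family and above that of 95.4% of all probes, and its arrays had both signs and 1 exact 0. Without replicate 2 its mean was -0.0877, and that of Hoxa6, at -0.0906, was then lower. Hoxb5, which acts in the development of the gut's nerve cells, had 0.0331, 0.243, 0.260, 0.107 and 0.137, a mean of 0.156 ± 0.0953. It was positive on all 5 arrays, 1.43-fold if log10, and did not pass (limma adjusted p = 0.0899). Its mean was 0.130 without replicate 3, below that of Hoxd4 at 0.177.

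Hoxb8 and Hoxb9 stood highest on replicate 2. Hoxb8, which mouse knockouts link to grooming behaviour, had 0.0411, 0.322, 0, 0.149 and 0, a mean of 0.102 ± 0.137 (SD, n = 5), and 0.0475 without replicate 2. Hoxb9, a gene of the thoracic region, ranged from -0.159 on replicate 3 to 0.310 on replicate 2 with replicate 5 at 0, a mean of 0.0161 ± 0.185 that was -0.0573 without replicate 2. Hoxb4, which can expand blood stem cells, averaged 0.0236 ± 0.0881, and its mean was -0.00962 without replicate 2. So in these 3 genes replicate 2 held the highest value, and for Hoxb9 and Hoxb4 it set the sign of the mean. Hoxb3, a hindbrain gene, was positive on 4 arrays, with a mean of 0.0408 ± 0.0361. Hoxb6 averaged -0.0292 ± 0.0582, and Hoxb13, expressed in the prostate and the tail bud, -0.0342 ± 0.0373. None of the 8 Hoxb probes passed, against 3.42% of all probes, the lowest limma adjusted p being that of Hoxb5. In limma 2 of the 8, Hoxb3 and Hoxb5, had an unadjusted p under 0.05, or 25% against 27.3% of all probes.

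The Hoxc cluster held steady probes, such as Hoxc4 and Hoxc10, beside variable ones, such as Hoxc13 and Hoxc5. Hoxc4 had log ratios of 0.00250, 0.00364, -0.00207, -0.0188 and -0.00922 on replicates 1 to 5, a mean of -0.00480 ± 0.00933 (SD, n = 5), the smallest nonzero SD among Hox probes. Hoxc10, which marks the lumbar level, had -0.00683, 0.0244, 0.000123, 0.0136 and 0.0172, a mean of 0.00970 ± 0.0128. Neither gene departed from 0 by more than its spread. Hoxc6, which sets the forelimb-level motor neurons, ranged from 0.0383 to 0.101, all positive, with a mean of 0.0661 ± 0.0236 and a limma adjusted p of 0.0529. With array scaling (adjusted p = 0.0451) or array weights (0.0376) in limma, Hoxc6 passed, and over its other alternatives the adjusted p ran from 0.0645 to 0.151.

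The means of Hoxc5, Hoxc8, Hoxc12 and Hoxc13 moved by over 1.5 times when 1 array was left out. So did the small means of Hoxc4 (-0.00129 without replicate 4) and Hoxc10 (0.00603 without replicate 2). Hoxc5 had -0.214, -0.322, 0.0836, -0.0486 and -0.0261, a mean of -0.105 ± 0.161 (SD, n = 5), with replicates 1 and 2 well below the others, and a mean of -0.0512 without replicate 2. Hoxc13, a regulator of hair keratin genes, had 0.0415, 0.0287, -0.0124, -0.0166 and -0.354, so that replicate 5 alone lay far from 0. Its mean of -0.0625 ± 0.165 was 0.0103 without replicate 5. Hoxc12 had 0, 0.0655, 0, 0.206 and -0.00788, a mean of 0.0527 ± 0.0906 with 2 arrays at exactly 0, and 0.0144 without replicate 4. Hoxc8, a thoracic gene, was positive on replicates 1 and 2 (0.181 and 0.244), negative on replicates 3 and 4 (-0.0944 and -0.121) and 0 on replicate 5. Its mean was 0.0419 ± 0.164, and -0.00856 without replicate 2. Hoxc9, which sets the thoracic type of motor neurons, was positive on 4 arrays and -0.00272 on replicate 5, with a mean of 0.0521 ± 0.0349 (limma adjusted p = 0.117) that stayed between 0.0425 and 0.0658 with any 1 array left out.

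In the Hoxd cluster the 3′ members Hoxd1, Hoxd3 and Hoxd4 had positive means and the 5′ members Hoxd10 to Hoxd13 negative ones. This order was not tested. Hoxd4, a gene of the hindbrain and neck vertebrae, had log ratios of 0.345, 0.0654, 0.0664, 0.152 and 0.148 on replicates 1 to 5, a mean of 0.155 ± 0.114 (SD, n = 5; limma adjusted p = 0.118). Hoxd3, a gene of the neck vertebrae, had 0.0708, 0.160, 0.103, -0.0579 and 0.189, a mean of 0.0930 ± 0.0963. Hoxd4 was positive on all 5 arrays and Hoxd3 on 4. Hoxd1 was exactly 0 on replicate 5, within 0.001 of 0 on replicate 1 and 0.0144 to 0.0493 on the other arrays, with a mean of 0.0167 ± 0.0202. Hoxd9 had a mean of 0.0187 ± 0.0307.

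Hoxd10 and Hoxd11, which act together in the forelimb, were 0 or negative on every array. Hoxd10 had 0, -0.367, 0, -0.236 and 0, a mean of -0.121 ± 0.171 (SD, n = 5), and Hoxd11 had -0.0501, -0.321, 0, -0.199 and 0, a mean of -0.114 ± 0.142. Both were lowest on replicate 2 and next lowest on replicate 4. Without replicate 2 the means were -0.0589 for Hoxd10 and -0.0622 for Hoxd11. Hoxd8 had -0.0337, -0.00977, -0.0220, -0.0219 and -0.0331, a mean of -0.0241 ± 0.00985, and Hoxd12 averaged -0.0357 ± 0.0279. Both were negative on all 5 arrays with an unadjusted p under 0.05 in limma, and neither passed the adjustment (adjusted p = 0.125 and 0.162 in limma). Hoxd13, the gene of digit patterning whose human form is altered in synpolydactyly, lay between -0.0214 and 0.0445 on replicates 1 to 4 and at -0.184 on replicate 5. Its mean of -0.0304 ± 0.0904 was 0.00809 without replicate 5.

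Set out by paralog group, the means of groups 3 and 9 were all positive and those of group 13 all negative, a feature singled out after the values were seen and not tested. Group 3 held Hoxa3 (0.135), Hoxb3 (0.0408) and Hoxd3 (0.0930). Group 9 held Hoxa9 (0.0453), Hoxb9 (0.0161), Hoxc9 (0.0521) and Hoxd9 (0.0187). Group 13 held Hoxa13 (-0.0562), Hoxb13 (-0.0342), Hoxc13 (-0.0625) and Hoxd13 (-0.0304). The signs of Hoxb9, Hoxc13 and Hoxd13 each rested on 1 array, replicate 2 for Hoxb9 and replicate 5 for the other two, and that of Hoxb9 was also negative with scaled, quantile-normalized or weighted arrays. Group 4 held small means of both signs (Hoxa4, Hoxb4 and Hoxc4) and the larger Hoxd4. Over groups 1 to 5 there were 9 positive and 4 negative means, over groups 6 to 9 there were 8 and 3, and over groups 10 to 13 there were 3 positive, 7 negative and 1 at 0. The medians were 0.0321, 0.0187 and -0.0342 in that order. Over all probes 51.3% of the means were positive and 46.8% negative. The difference between these ranges of groups was not tested. Besides Hoxb9, Hoxc13 and Hoxd13, the signs of Hoxa10, Hoxb4 and Hoxc8 also changed when 1 array was left out.

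**Figure D2:**
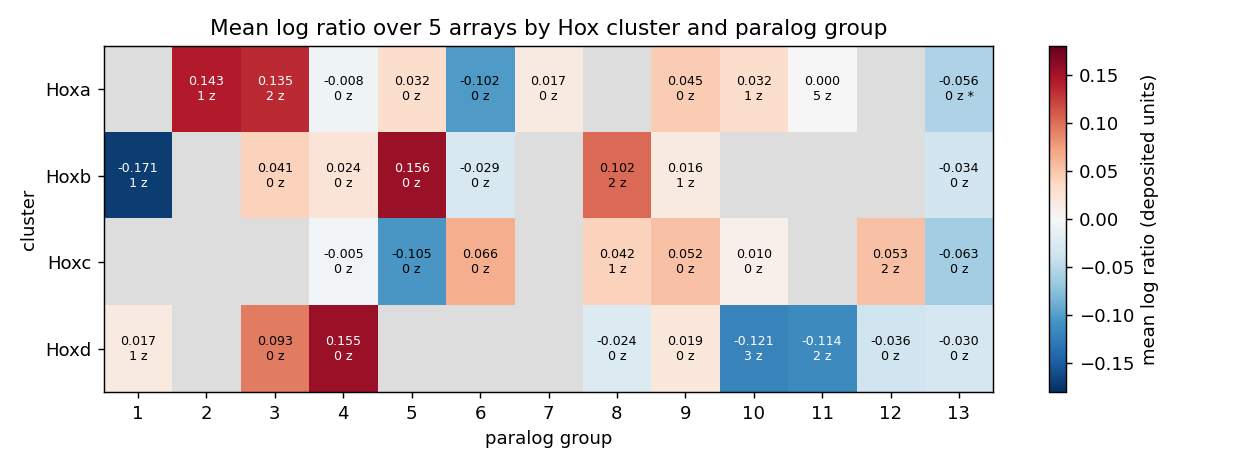
Mean log ratio over 5 arrays (deposited units, colour and upper number) by Hox cluster (rows) and paralog group (columns); the lower number with z counts arrays listed at exactly 0, the star marks a limma adjusted p under 0.05, and grey cells have no probe analysed. The 4 cells of group 13 lie between -0.0625 and -0.0304, the 4 cells of group 9 between 0.0161 and 0.0521, and the star stands on Hoxa13.

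Hox probes ranged widely in how far arrays differed. The between-array SD had a median of 0.0875 over the Hox probes and 0.0588 over all probes, with quartiles of 0.0257 and 0.146 against 0.0286 and 0.112, and 19 of 35 lay above the median of all probes. That order of the medians was not stable. Without replicate 5 the median was 0.0395 over the Hox probes and 0.0483 over all probes. It was also lower in Hox probes without replicate 4 (0.0536 against 0.0567), and among probes without exact zeros (0.0361 against 0.0468), and about equal without replicate 1 (0.0573 against 0.0569). By cluster the median SD was 0.0465 for Hoxa, 0.0917 for Hoxb, 0.0627 for Hoxc and 0.0904 for Hoxd. The steadiest probes free of exact zeros were Hoxc4, Hoxd8, Hoxc10, Hoxa13 and Hoxa4, with SDs of 0.00933 to 0.0164. The most variable of that kind were Hoxc13, Hoxc5, Hoxd4, Hoxd3 and Hoxb5, with SDs of 0.165 to 0.0953.

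**Figure D3:**
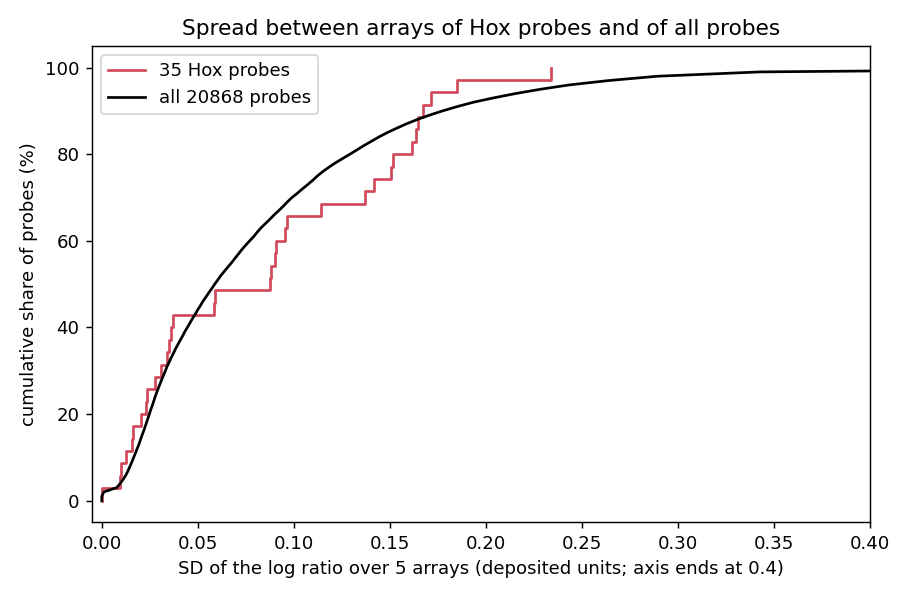
Cumulative share of probes (%, y axis) at or below a given SD of the log ratio over 5 arrays (deposited units, x axis, cut at 0.4), for the 35 Hox probes in red and all 20868 probes in black. The red line lies above the black one from 0.0128 to 0.0373, below it from 0.0588 to 0.146 and above it again from 0.167, with medians of 0.0875 and 0.0588.

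Arrays contributed unequally to that spread. Within single arrays the SD over the 35 Hox ratios was 0.0990, 0.185, 0.101, 0.0982 and 0.107 on replicates 1 to 5. On replicate 2, 9 of 35 Hox probes lay beyond 1.5-fold if log10, or 25.7% against 19.3% of all probes, while the other arrays had 2 to 4 such Hox probes. Replicate 2 was also the array farthest from the probe's mean for 12 of the 34 Hox probes that varied, and replicate 5 for 6 of them. Over all probes replicate 2 was farthest for 25.5% and replicate 5 for 28.4%. The median Hox ratio was 0.0123, 0.0196, 0, 0.0253 and 0 by array. Correlations between arrays across the 35 Hox probes ran from 0.163 to 0.501 over 10 pairs of arrays (median 0.245), and from 0.268 to 0.424 across all probes (median 0.368). Probes are not independent replicates, and the pairs share arrays.

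Exact zeros fell on 12 Hox genes. In all, 22 of 175 Hox values were listed at exactly 0, or 12.6% against 11.5% over all probes, and 34.3% of Hox probes had at least 1 against 25.7% of all probes. By array the Hox zeros numbered 4, 3, 5, 1 and 9 on replicates 1 to 5, which is 11.4%, 8.57%, 14.3%, 2.86% and 25.7% of the Hox probes against 9.57%, 8.31%, 12.4%, 6.43% and 20.8% of all probes. The order of the arrays was the same in both. Besides Hoxa11 with 5, the zeros fell on Hoxd10 with 3, on Hoxa3, Hoxb8, Hoxc12 and Hoxd11 with 2 each, and on Hoxa2, Hoxa10, Hoxb1, Hoxb9, Hoxc8 and Hoxd1 with 1 each. All members of paralog groups 4, 5, 6, 7 and 13 were free of them. None of the sources used here says how a value of exactly 0 arises.

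Hox probes with some exact zeros varied more over the arrays, zeros included, than those with none. The 11 Hox probes with a zero on 1 to 4 arrays had a median SD of 0.152, against 0.0361 for the 23 without one. The same order held over all probes, at 0.117 for 4949 probes with and 0.0468 for 15507 without. Hoxd1, at 0.0202, was the exception among the Hox probes. The 10 Hox probes with an unadjusted p under 0.05 in limma were all free of zeros. They made up 43.5% of the 23 Hox probes without zeros, against 33.9% over all probes without zeros. Of the 11 Hox probes with zeros on 1 to 4 arrays 0 had such a p, against 438 of the 4949, or 8.85%, over all probes of that kind. None of those 4949 probes passed the adjusted threshold in limma.

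As the arrays are a control for power, the smallest shift from 0 that they could detect was computed for each Hox probe from its SD. This is not the power to find a cis ceQTL, which was not computed. With 5 arrays, a shift has to reach 1.68 SDs to be found by a one-sample two-sided test with a power of 0.8 at an alpha of 0.05, before any adjustment. Read as log10, the median smallest detectable fold was 1.40 over the 34 Hox probes that varied and 1.26 over all such probes. It was under 1.5-fold for 22 of the 34, or 64.7% against 71.5% of all probes. It was lowest for Hoxc4 and Hoxd8 (1.04-fold each) and highest for Hoxb1 (2.47-fold), Hoxb9 (2.05-fold) and Hoxd10 (1.94-fold). Of the Hox probes without exact zeros 20 of 23 were under 1.5-fold, all but Hoxc5, Hoxc13 and Hoxd4, and of the 11 with zeros 2 were, Hoxc12 (1.42-fold) and Hoxd1 (1.08-fold). Read as log2, all 34 were under 1.5-fold, as were 99.1% of all probes.

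**Figure D4:**
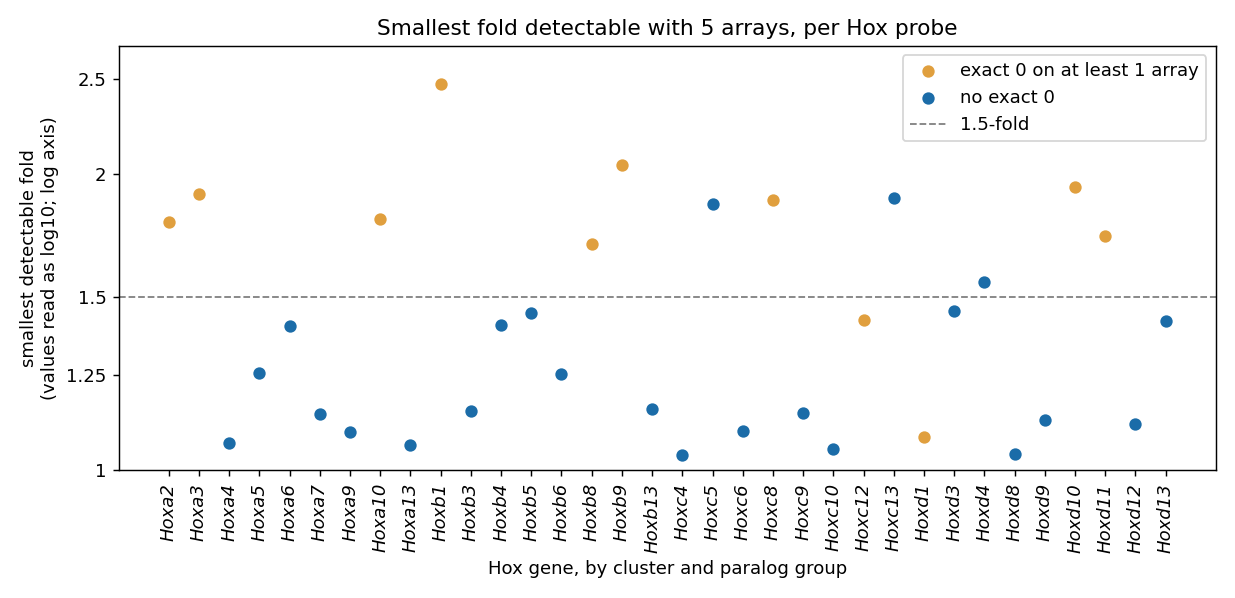
Smallest fold (log axis, values read as log10) that a test on 5 arrays would detect with a power of 0.8 at an alpha of 0.05 before adjustment, for each Hox probe with a nonzero SD (x axis, by cluster and paralog group); orange points had an exact 0 on at least 1 array, blue points had none, and the dashed line is 1.5-fold. Among blue points 20 of 23 lie under the line and among orange points 2 of 11, with Hoxb1 highest at 2.47-fold.

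Genes that work with or regulate Hox genes were then read from the same fit, as 5 lists with 87 probes for 81 genes. TALE homeodomain cofactors, which bind DNA together with Hox proteins, had 0 of 8 probes called, against 3.42% of all probes, and a median ratio of 0.0152. In limma Pbx3 had a mean of -0.0819 ± 0.0726 (SD, n = 5; adjusted p = 0.165) and Pbx2 of 0.154 ± 0.143 (adjusted p = 0.171), and 2 of the 8 probes had an unadjusted p under 0.05, or 25% against 27.3% of all probes. Polycomb group genes, which keep Hox genes silent, had 2 of 33 probes called, both positive, and a median of 0.0289. Of all probes 3.42% were called with either sign, and 1.41% with a positive mean. At an unadjusted p under 0.05 the list had 10 of 33, or 30.3% against 27.3% of all probes. The called genes were Cbx8, a subunit that reads methylated histone H3, at 0.115 ± 0.0300 (limma adjusted p = 0.0351), and Ring1, a ubiquitin ligase subunit, at 0.0618 ± 0.0119 (limma adjusted p = 0.0386).

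Trithorax and MLL genes, which keep Hox genes active, had 2 of 11 probes called, both positive, and a median of 0.0383. The shares over all probes were the same 3.42% for either sign and 1.41% for a positive mean. At an unadjusted p under 0.05 the list had 5 of 11, or 45.5% against 27.3% of all probes. The H3 methyltransferase gene Dot1l had log ratios of 0.121, 0.137, 0.133, 0.114 and 0.147 on replicates 1 to 5, a mean of 0.131 ± 0.0130 (SD, n = 5; limma adjusted p = 0.0124). Ash2l, a core subunit of the H3K4 methyltransferase complexes, had 0.0570 ± 0.0158 (limma adjusted p = 0.0496). Retinoic acid and Cdx genes, upstream inputs to the clusters, had 1 of 17 called, with a negative mean. Of all probes 3.42% were called, 2% with a negative mean. At an unadjusted p under 0.05 the list had 4, or 23.5% against 27.3% of all probes. The called gene was Aldh1a2, which makes retinoic acid, at -0.163 ± 0.0643 (limma adjusted p = 0.0499), with the receptor gene Rarg at -0.133 ± 0.0725 (0.0759). Other homeobox genes of the same class had 0 of 18 called in limma, against the same 3.42%. At an unadjusted p under 0.05 they had 4, or 22.2% against 27.3% of all probes. Mnx1 was at -0.321 ± 0.164 (limma adjusted p = 0.0676) and Dlx2 at 0.117 ± 0.0770 (0.101). Of the 5 calls, that of Dot1l alone outlasted the loss of an array, and only of replicate 5, as leaving out replicate 1, 2, 3, 4 or 5 left 0, 0, 0, 0 or 1 list probe called. Over all 20868 probes the same refits called 24, 4, 5, 8 and 63, against 713 with all arrays, so the loss was not particular to the lists. With all arrays, Cbx8 and Dot1l passed in each of the same 6 settings, Ring1 lost the call in 3, and Ash2l and Aldh1a2 in 4. The median SD was 0.0271 for Trithorax and MLL and 0.0363 for Polycomb probes, against 0.0588 over all probes. It was 0.0615 for TALE, 0.0692 for retinoic acid and Cdx and 0.0757 for other homeobox probes.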

How the data were processed

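Chinese hamster A23 RNA was compared with itself on 5 two-colour arrays, labelled directly with Cy5 and Cy3 per the labels' protocols. The deposited table holds 1 log ratio per probe and array, read here as log10, with log2 as an alternative; the sources used here give neither base nor numerator, nor how background and dyes were corrected. The table has 0 columns of other samples. Gene names came from the platform's annotation of mouse genes: 17786 probes had 1 symbol, 16 several and 3066 none. Each probe's mean ratio was tested against 0 in limma 3.58.1 under R 4.3.3 (lmFit with an intercept, eBayes), with Benjamini-Hochberg adjustment over 20868 probes, and the fit was tested on simulated data. No filter was applied. Members and lists were chosen with earlier results of these data known, so no count over a list is independent support. Values on every array are given for called probes, the 4 largest means of each sign, the 5 largest and 5 smallest SDs without exact zeros, and probes with 2 or more zeros. From the lists, called genes and the 2 smallest p per list are named. Alternatives changed the centring, scale or distribution of arrays, used a robust or weighted fit, took zeros as missing, dropped probes with zeros, averaged genes or left out each array. The number of arrays limits the precision, and no slide or scan date was at hand to test a batch.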

Additional observations from a re-analysis of the deposited data

Results flagged for a closer look

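In groups of 5 arrays, values whose gap to the nearest other array exceeded Dixon's 95% limit were singled out, which chance does for about 1 in 20 groups. Of the 34 Hox probes that varied, 3 did so, and of the 10 named list probes 0 did. The share over all probes was not computed. Hoxa6 was 0.0519 on replicate 1 and between -0.154 and -0.113 on the others. Hoxc13 was -0.354 on replicate 5 and between -0.0166 and 0.0415 on the others. Hoxd13, of the same paralog group, was -0.184 on replicate 5 and between -0.0214 and 0.0445 on the others. Of the 4 summaries per array, 2 stood apart on replicate 2: the SD over the Hox ratios was 0.185 there against 0.0982 to 0.107, and the share of Hox probes beyond 1.5-fold was 25.7% against 5.71% to 11.4%. The SD over all probes was also highest on replicate 2, and its part in the single Hox values was not tested.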

How the results depend on the processing

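No paired analysis was possible because all arrays form 1 group. The count of called Hox probes was 1 as reported, when 3.42% of all probes were called. It was 0 after centring on non-zero ratios (1.5% of all probes called), quantile normalization (2.53%) or a robust fit (1.2%). Taking zeros as missing (1.63%) or averaging per gene (2.45% of genes) also gave 0, as did leaving out any 1 array (0.0192% to 0.302%). The Hox count was 2 after scaling (4.58%), with array weights (7.58%) or among probes without zeros (8.54%). The median between-array SD was 0.0753 after scaling, 0.0673 after quantile normalization, 0.0361 among probes without zeros and 0.0395 to 0.0844 with 1 array left out. With 1 array left out, 6 to 8 of the 35 Hox probes had an unadjusted p under 0.05 in limma, beside 21.1% to 25.4% of all probes. The median mean ratio of the Hox probes was then 0 to 0.0217, and it was 0 without replicate 2. All 34 detectable folds were under 1.5 if the values are log2, and 16 to 20 with 1 array left out. Called list probes numbered 2 after centring or a robust fit, 3 after quantile normalization, with zeros missing or averaged per gene, 8 with weights, 7 among probes without zeros (this and the average per gene were added after seeing the data), and 0 to 1 with 1 array left out. These counts are to be read against the shares called in the same settings, given above. Among 384 refits of single Hox probes, 364 kept their sign and side of the threshold and 9 changed sign, over 6 probes. These were Hoxb9 (-0.0118 scaled, -0.0178 quantile-normalized, -0.0487 weighted) and, with single arrays left out, Hoxb9 (-0.0573 to 0.0597), Hoxa10 (-0.0319 to 0.0662), Hoxb4 (-0.00962 to 0.0485), Hoxc8 (-0.00856 to 0.0826), Hoxc13 (-0.0885 to 0.0103) and Hoxd13 (-0.0491 to 0.00809). The opposite sign came without replicate 2 for Hoxb9, Hoxb4 and Hoxc8, without replicate 1 for Hoxa10 and without replicate 5 for Hoxc13 and Hoxd13. The causes were not tested.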

Other observations

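Antisense RNAs of the clusters, which the symbol rule does not take, had 2 singly named probes, looked up after the Hox values were seen. Hoxaas2, from the Hoxa cluster, had log ratios of -0.0164, -0.0116, -0.0118, -0.0318 and -0.0528 on replicates 1 to 5, a mean of -0.0249 ± 0.0177 (SD, n = 5; limma adjusted p = 0.176), negative on each array. Hoxd3os1, from the Hoxd cluster, had 0, 0, 0.591, 0.167 and 0.226, a mean of 0.197 ± 0.242 (limma adjusted p = 0.260) that was 0.0984 without replicate 3. Neither passed, and under the alternatives run for single probes neither changed sign or passed.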
